A study of Mus musculus with 9 samples.

Results

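The genes described here are those of the oxidative phosphorylation machinery, most of which encode its subunits. They were taken as the protein-coding genes of the GENCODE M21 annotation whose symbols begin with Nduf, Uqcr, Atp5 or Cox4 to Cox8, or name an Sdh subunit or a mitochondrial Nd, Co, Cytb or Atp gene. The rule found 107 genes, of which 106 stood among the 48795 genes of the deposited table. Of these, 93 were nuclear and 13 mitochondrially encoded. The nuclear members held 36 subunits and 8 assembly factors of complex I, 4 subunits of complex II, 8 of complex III, 19 genes of complex IV and 16 of complex V. The remaining nuclear members were Cox7a2l, which helps to join complexes into supercomplexes, and Atp5s, a mitochondrial protein that is not a subunit of the synthase. A mean signal of 10 or more over all libraries, the filter for testing, was reached by 87 nuclear and 13 mitochondrially encoded members.

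RNA-seq was performed on mouse colon organoids, which are epithelial cultures grown from colonic crypts. WENR, the medium in all groups, contains Wnt and maintains stem cells. WT organoids carried an intact aryl hydrocarbon receptor (AHR), a transcription factor switched on by ligands, and AHR KO organoids came from mice in which a Villin-driven Cre removes a floxed part of Ahr in the gut epithelium. The organoids received 5 nM of the AHR ligand FICZ or the solvent DMSO for 4 h, and the groups were WT DMSO (n = 2), WT FICZ (n = 3), AHR KO DMSO (n = 2) and AHR KO FICZ (n = 2). Per the methods, the mice were on a C57BL/6 background with WT littermates as controls. Only RNA was measured, so that nothing here bears on the activity of the complexes.

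Oxidative phosphorylation takes place in the inner mitochondrial membrane. Complexes I to IV pass electrons from NADH and succinate to oxygen, complexes I, III and IV pump protons as they do so, and complex V, the ATP synthase, uses the proton gradient to make ATP. Complexes I, III, IV and V are assembled from subunits of both genomes, whereas complex II is wholly nuclear, and the mitochondrial genes are read from long polycistronic transcripts of each strand. In the colon, the epithelium relies on this pathway to oxidise butyrate, and it is more active in differentiated colonocytes than in proliferating cells.

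Library totals of the deposited signal ran from 23177058 to 25033827. Of the targeted receptor, Ahr signal was 783 to 858 in the libraries labelled WT and 1346 to 1443 in those labelled AHR KO. A signal summed over the whole gene does not check the deleted part. The ligand response differed in size between the labels, with Cyp1a1 at 0 to 5.84 under DMSO and 6987 to 7958 under FICZ in WT, against 0 to 2.93 and 100.3 to 138.8 in AHR KO, so that a smaller response remained in the AHR KO libraries. All 6 epithelial markers were present, with summed signals of 211558 to 234236, and the 6 fibroblast markers summed to under 5 in each library. The 6 immune markers summed to 475 to 712. The 4 endothelial markers summed to 25.6 to 57.8 in WT and 18.4 to 22.2 in AHR KO. In each of these lists 1 marker reached the filter. The 8 goblet cell markers summed to 3684 to 5904 in WT and 1306 to 1810 in AHR KO, and of the 7 absorptive colonocyte markers tested 3 were lower in AHR KO than in WT under DMSO (against 4.83% of all genes) and 5 under FICZ (against 10.5%). The sum over the 10 absorptive markers (108497 to 176858) was mostly 1 gene, Ceacam1 (106083 to 171498). Ceacam1 was also the 1 marker of the 7 called with FICZ in WT, where it fell (against 15.7% of all genes). In AHR KO 0 of the 7 were called by limma (2 at an unadjusted p under 0.05), against 10.2% of all genes higher and 9.48% lower. The 7 stem cell markers summed to 11490 to 12115 in WT DMSO, 10133 to 10882 in WT FICZ, 12383 to 12739 in AHR KO DMSO and 13704 to 13734 in AHR KO FICZ. Of these, Lgr5 (-1.28) and Sox9 (-0.91) fell with FICZ in WT and not in AHR KO (-0.03 and 0.10), with a called interaction for each, and Rnf43 rose in both genotypes. The 7 markers of proliferating cells summed to 52451 to 52837 in WT DMSO, 47530 to 52714 in WT FICZ, 48612 to 48653 in AHR KO DMSO and 41807 to 47637 in AHR KO FICZ. With FICZ, 1 of the 7 fell in each genotype, against 15.7% of all genes in WT and 9.48% in AHR KO. Malat1, an RNA kept in the nucleus, was at 3937 and 2921 in WT DMSO, 6716, 4218 and 4747 in WT FICZ, 3764 and 4394 in AHR KO DMSO, and 4423 and 5489 in AHR KO FICZ, with each FICZ library above the DMSO libraries of its genotype. Neat1 and Kcnq1ot1, also RNAs kept in the nucleus, overlapped between treatments in each genotype. Neat1 ran from 230 to 377 in WT DMSO and 227 to 281 in WT FICZ. In AHR KO it ran from 341 to 417 under DMSO and 357 to 376 under FICZ. Kcnq1ot1 ran from 55.5 to 60.4 in WT DMSO and 59.3 to 68.4 in WT FICZ. In AHR KO it ran from 56.8 to 64.3 under DMSO and 60.3 to 71.2 under FICZ. The part of such differences in the results on genotype and on FICZ was not tested. In bulk samples, fewer cells of a type and less RNA per cell cannot be told apart.

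FICZ moved nuclear members in both directions, in WT and in AHR KO. A gene is said to have risen or fallen where limma gave a Benjamini-Hochberg adjusted p under 0.05 over all 12741 genes tested, and differences are on the scale of log2(signal + 1) with their standard errors. In WT, 26 of the 87 nuclear members rose (29.9%, against 15.1% of all genes) and 11 fell (12.6%, against 15.7% of all genes), with a median difference of 0.07 against -0.01 over all genes. In AHR KO, 21 rose (24.1%, against 10.2% of all genes) and 12 fell (13.8%, against 9.48% of all genes), with a median of 0.04 against -0.01 over all genes. The highest differences in WT, apart from the read-sharing gene Atp5g2, were those of Atp5d, Uqcrq and Ndufa11, and the lowest those of Ndufaf2, Uqcrb and Ndufaf4. The called differences ran from -0.48 to 0.61 when Atp5g2 is left aside. The changes were related to base composition, and a fit with the trend on GC content and transcript length removed from each library was also made. It kept 20 of the 37 nuclear calls in WT and 17 of the 33 in AHR KO. Fewer nuclear members fell in that fit in each genotype, with the counts given further on. Its values are given beside some of the results that it changed.

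In complex I, the entry point for electrons from NADH, 10 of 36 subunits rose with FICZ in WT and 4 fell. Of the WT calls, only those of Ndufa5, Ndufa7, Ndufa10, Ndufa11 and Ndufs7 held in all 9 fits with 1 library left out. The call of Ndufs3 was lost in each of these 9 fits (0.14 to 0.20) and that of Ndufb11 in 6 (0.14 to 0.23). Beside the counts of each complex stand the shares of all genes, 15.1% higher and 15.7% lower in WT. In AHR KO these shares were 10.2% and 9.48%. In AHR KO, Ndufa2, Ndufa7, Ndufa11, Ndufa13, Ndufb2, Ndufb6, Ndufb11, Ndufs7 and Ndufv1 rose, and Ndufa5, Ndufa10, Ndufa12, Ndufb4, Ndufs1 and Ndufs6 fell. Of these AHR KO calls, only those of Ndufa5, Ndufa7, Ndufa11 and Ndufs7 held in all 9 fits with 1 library left out. Ndufa11, an accessory subunit of the membrane arm, had signals of 505 and 525 in WT DMSO, 775, 725 and 789 in WT FICZ, 460.0 and 507 in AHR KO DMSO, and 759 and 717 in AHR KO FICZ. Each FICZ library lay above each DMSO library of its genotype, with a difference of 0.56 ± 0.08 in WT (adjusted p = 0.000739) and 0.61 ± 0.08 in AHR KO (adjusted p = 0.00228). Ndufa7, an accessory subunit, showed signals of 1088 and 1186 in WT DMSO, 1428, 1405 and 1482 in WT FICZ, 1092 and 1125 in AHR KO DMSO, and 1608 and 1566 in AHR KO FICZ. Its difference was 0.34 in WT and 0.52 in AHR KO, called in each. Among the core subunits, which carry the cofactors, Ndufv1, the NADH-binding subunit with the flavin, rose by 0.25 in WT and 0.29 in AHR KO, and Ndufs7, an iron-sulfur subunit, by 0.41 and 0.43. Ndufs1, the largest iron-sulfur subunit, fell by 0.27 in AHR KO and had a difference of -0.07 in WT that was not called. With the GC trend removed Ndufv1 (0.07 in WT and 0.10 in AHR KO), Ndufs7 (0.14 in WT and 0.16 in AHR KO) and Ndufs1 (-0.12 in AHR KO) were not called. With 1 library left out at a time, calls were lost for Ndufv1 in WT without WT DMSO replicate 2 (0.24) and Ndufv1 in AHR KO without AHR KO DMSO replicate 1 or AHR KO FICZ replicate 3 (0.27 to 0.28). Ndufs1 lost its AHR KO call in 3 of these 9 fits (-0.32 to -0.20).

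Ndufa5, an accessory subunit of the arm that reaches into the matrix, went the other way. Its signals were 1254 and 1194 in WT DMSO, 919, 1027 and 967 in WT FICZ, 1167 and 1135 in AHR KO DMSO, and 790.5 and 801 in AHR KO FICZ. It fell by 0.34 in WT (adjusted p = 0.00413) and by 0.53 in AHR KO (adjusted p = 0.00213). Ndufa10, another accessory subunit, was at 4098 and 4391 in WT DMSO, 3438, 3230.1 and 3204 in WT FICZ, 4234 and 3853 in AHR KO DMSO, and 3145 and 2912 in AHR KO FICZ. The FICZ libraries of Ndufa10 were below the DMSO libraries of their genotype, with differences of -0.37 in WT and -0.42 in AHR KO. Subunits of the same complex therefore moved apart, and the median over the 36 subunits was 0.07 in WT and 0.04 in AHR KO. Of the 8 assembly factors of complex I, Ndufaf8 rose in both genotypes (0.43 in WT and 0.56 in AHR KO). Ndufaf2, a factor that binds late in assembly, fell by 0.48 and 0.38, from signals of 372 and 353 in WT DMSO, 262, 272 and 243 in WT FICZ, 366 and 367 in AHR KO DMSO, and 288 and 277 in AHR KO FICZ. Ndufaf4 fell by 0.39 and 0.37. Removing the GC trend ended the calls of Ndufaf4 (-0.17 in WT and -0.15 in AHR KO), Ndufaf8 (0.36 in WT and 0.47 in AHR KO) and, in AHR KO, Ndufaf2 (-0.33). With 1 library left out at a time, calls were lost for Ndufa10 in AHR KO without AHR KO DMSO replicate 1 (-0.35) and Ndufaf4 in AHR KO without AHR KO DMSO replicate 3 (-0.32). Ndufaf8 lost its WT call in 7 of these 9 fits (0.35 to 0.51), Ndufaf8 its AHR KO call in 3 (0.43 to 0.60) and Ndufaf2 its AHR KO call in 4 (-0.40 to -0.35).

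Complex II, succinate dehydrogenase, links the chain to the citric acid cycle. Of its 4 subunits, the membrane anchors Sdhc (0.34 in WT and 0.35 in AHR KO, called in each) and Sdhd (0.28 in WT and 0.22 in AHR KO, called in WT, with an interaction adjusted p of 0.963) rose. The flavin-carrying Sdha (0.06 in WT and -0.03 in AHR KO) and the iron-sulfur subunit Sdhb (0.15 in WT and 0.16 in AHR KO) were not called. With the GC trend removed Sdhd was called in AHR KO too (0.28). With 1 library left out at a time, calls were lost for Sdhc in WT without WT DMSO replicate 2 (0.28) and Sdhd in WT without WT DMSO replicate 2 (0.24). Sdhc lost its AHR KO call in 3 of these 9 fits (0.22 to 0.37, the smallest without AHR KO FICZ replicate 1).

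In complex III, which passes electrons from ubiquinol to cytochrome c, 4 of 8 nuclear subunits rose in WT and 2 fell, and 3 rose and 2 fell in AHR KO. Uqcrq, a small subunit, had signals of 1503 and 1490.5 in WT DMSO, 2086, 2480.4 and 2264 in WT FICZ, 1651 and 1788 in AHR KO DMSO, and 2395 and 2279 in AHR KO FICZ. It rose by 0.60 ± 0.07 in WT (adjusted p = 0.000462) and 0.44 ± 0.08 in AHR KO (adjusted p = 0.00618). Uqcr11, the smallest subunit, differed by 0.52 in WT and 0.44 in AHR KO, and the core protein Uqcrc1 by 0.27 in WT and 0.27 in AHR KO. Uqcrfs1, the Rieske iron-sulfur protein that carries out the electron transfer, rose in WT (0.23), with 0.18 in AHR KO, not called. Uqcrb, which lies close to the site of quinone binding, was at 4689.7 and 4714 in WT DMSO, 3491, 3429.6 and 3753 in WT FICZ, 4063 and 3712 in AHR KO DMSO, and 3133 and 2811 in AHR KO FICZ. It fell by 0.40 and 0.39, and Uqcrh, the hinge protein that helps cytochrome c to dock, fell by 0.23 and 0.26. Neither fall was called with the GC trend removed (Uqcrb -0.07 in WT and -0.06 in AHR KO, Uqcrh -0.06 in WT and -0.08 in AHR KO), so that complex III then had 0 nuclear members called lower in either genotype, and Uqcr11 (0.30 in WT and 0.20 in AHR KO) was called in WT only. With 1 library left out at a time, calls were lost for Uqcrq in AHR KO without AHR KO DMSO replicate 1 (0.39), Uqcrc1 in AHR KO without AHR KO DMSO replicate 1 (0.26) and Uqcrb in AHR KO without AHR KO DMSO replicate 1 (-0.32). Uqcrh lost its AHR KO call in 3 of these 9 fits (-0.28 to -0.21) and Uqcrfs1 its WT call in 4 (0.17 to 0.28).

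In complex IV, cytochrome c oxidase, 13 of 19 nuclear genes were tested, of which 4 rose and 1 fell in WT and 4 rose in AHR KO. Cox8a, the ubiquitous form of the smallest subunit, had signals of 4153 and 4169 in WT DMSO, 6284, 5633 and 6250.0 in WT FICZ, 3539 and 3853 in AHR KO DMSO, and 5222 and 5040.1 in AHR KO FICZ. The FICZ libraries were above the DMSO libraries in each genotype (0.54 ± 0.06 in WT, adjusted p = 0.000342, and 0.47 ± 0.07 in AHR KO, adjusted p = 0.00236). The accessory subunits Cox7b (0.39 in WT and 0.26 in AHR KO), Cox6a1 (0.38 in WT and 0.39 in AHR KO) and Cox5a (0.33 in WT and 0.23 in AHR KO) rose in each genotype. Cox6c fell in WT (-0.26) and was at -0.14 in AHR KO, not called. Without the GC trend Cox6a1 (0.01 in WT and 0.01 in AHR KO) and Cox6c (-0.17 in WT) were not called. With 1 library left out at a time, calls were lost for Cox6c in WT without WT DMSO replicate 2 (-0.20). Cox7b lost its AHR KO call in 6 of these 9 fits (0.16 to 0.31, the smallest without AHR KO FICZ replicate 3) and Cox5a its AHR KO call in 7 (0.18 to 0.28).

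In complex V, 5 of 16 nuclear genes rose and 2 fell in WT, and 3 rose and 2 fell in AHR KO. Atp5d, the delta subunit of the stalk that turns inside the catalytic head, had signals of 3994 and 4334 in WT DMSO, 6442, 6008 and 6639.6 in WT FICZ, 3383 and 3563 in AHR KO DMSO, and 5419 and 5569.5 in AHR KO FICZ. All FICZ libraries of Atp5d were above all DMSO libraries of either genotype, with a rise of 0.61 ± 0.06 in WT (adjusted p = 0.000197) and 0.66 ± 0.07 in AHR KO (adjusted p = 0.00112). Atp5g1, which encodes the c subunit of the proton-driven ring, was at 1739.5 and 1824 in WT DMSO, 2615, 2585 and 2635 in WT FICZ, 1555 and 1784 in AHR KO DMSO, and 2244 and 2323 in AHR KO FICZ. It rose by 0.55 ± 0.06 and 0.46 ± 0.07. Atp5g3, a separate gene for the same mature c subunit, rose by 0.33 and 0.17. Of the peripheral stalk, which holds the head still, Atp5f1 was at -0.18 in WT and -0.25 in AHR KO and Atp5h at -0.17 in WT and -0.27 in AHR KO, each called lower. Both calls ended in both genotypes with the GC trend removed (Atp5f1 0.04 in WT and -0.02 in AHR KO, Atp5h -0.00 in WT and -0.10 in AHR KO), and Atp5d was then at 0.33 in WT and 0.38 in AHR KO, each called. The catalytic subunits Atp5a1 (0.01 in WT and 0.01 in AHR KO) and Atp5b (-0.03 in WT and -0.01 in AHR KO) were not called. With 1 library left out at a time, calls were lost for Atp5f1 in AHR KO without AHR KO DMSO replicate 1 or AHR KO FICZ replicate 3 (-0.24 to -0.20) and Atp5h in AHR KO without AHR KO DMSO replicate 1 (-0.27). Atp5g3 lost its AHR KO call in 8 of these 9 fits (0.12 to 0.21), Atp5f1 its WT call in 3 (-0.19 to -0.16) and Atp5h its WT call in 3 (-0.19 to -0.15).

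The FICZ comparisons in WT and in AHR KO share no library. Between them, 20 of the 87 nuclear members rose in both (against 7.83% of all genes), 9 fell in both (against 7.35%) and 0 moved in opposite directions (against 0.0471%), while 8 were called only in WT, 4 only in AHR KO and 46 in neither (against 15.6, 4.47 and 64.7%). The interaction, the test of whether the change differed between genotypes, was called by limma for 0 of the 100 members tested, against 0.447% of all genes, and 0 with the replicate number as a block. At an unadjusted p under 0.05 it held 4 members (against 7.47% of all genes), of which the lowest adjusted p was 0.454. The 12 nuclear genes called in 1 genotype therefore do not show a difference between genotypes. The count of 37 nuclear members called in WT was 20 without WT DMSO replicate 2, and the count of 33 in AHR KO was 10 without AHR KO DMSO replicate 1, 19 without AHR KO DMSO replicate 3, 18 without AHR KO FICZ replicate 3 and 20 with the GC content trend removed.

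**Figure D1:**
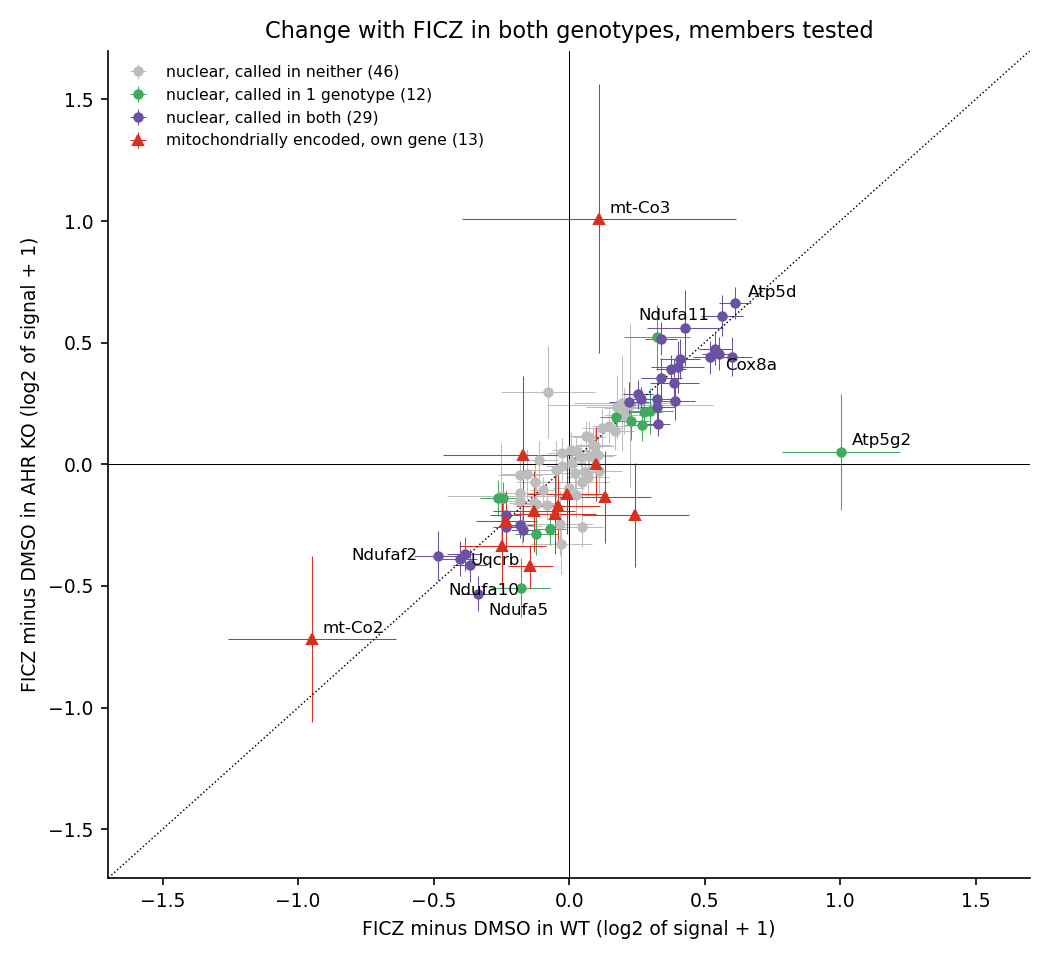
Change with FICZ in WT (x axis) against that in AHR KO (y axis), each as the log2 difference of signal + 1 between group means, for the 100 members tested, with bars for 1 standard error and a dotted line of equal change. The 29 nuclear members called in both genotypes lie in the upper right and lower left, and the members far from the line, Atp5g2 and mt-Co3, share reads with copies.

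**Figure D2:**
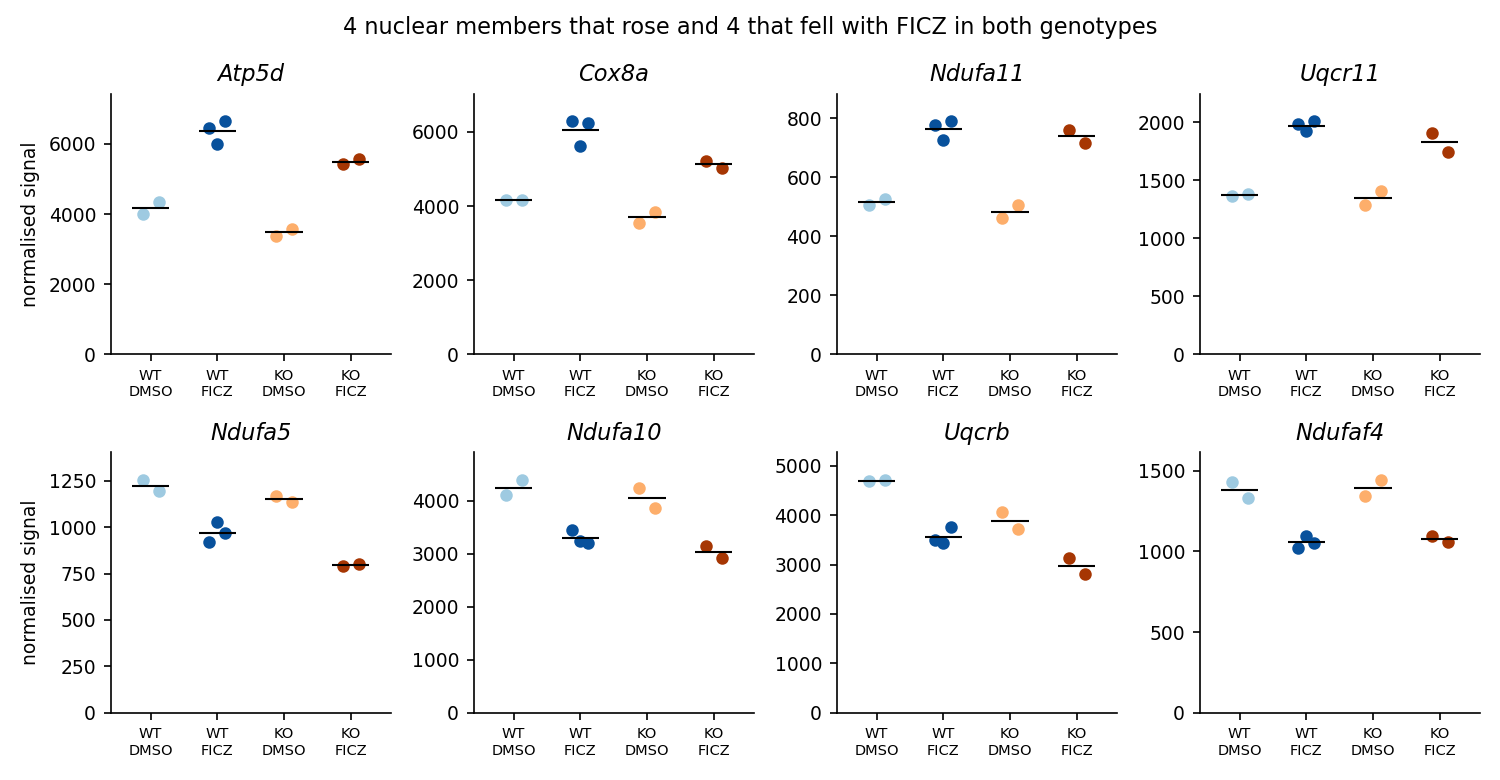
Normalised signal (y axis, linear, from 0) of 8 nuclear members in each library (points) with the group mean (line), by genotype and treatment, KO standing for AHR KO. In the upper row the FICZ libraries lie above, and in the lower row below, the DMSO libraries of their genotype.

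The promoters of 4 members are shown because their changes were called in both genotypes with or without the GC content trend described further on, Atp5d and Cox8a as genes that rose and Ndufa5 and Ndufa10 as genes that fell. Each line gives the 150 bases before the RefSeq start on GRCm38.p6, read 5′ to 3′ on the strand of the gene, and capitals mark GCGTG, the core of the AHR binding motif, and TGCGCA, a core of the motif of NRF1, a factor known to act on many genes of this pathway. The start used for Atp5d, the nearer of 2 in RefSeq, lies 3643 bases from the start of the gene in GENCODE, that of Ndufa5, also the nearer of 2, 323 bases, that of Ndufa10 102 bases and that of Cox8a 0 bases, so that the Atp5d window need not be the promoter in use.
Atp5d, chr10:80142125-80142274, plus strand: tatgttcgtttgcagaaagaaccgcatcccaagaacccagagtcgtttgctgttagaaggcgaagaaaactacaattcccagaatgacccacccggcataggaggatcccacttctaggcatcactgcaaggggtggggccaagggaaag
Cox8a, chr19:7217617-7217766, minus strand: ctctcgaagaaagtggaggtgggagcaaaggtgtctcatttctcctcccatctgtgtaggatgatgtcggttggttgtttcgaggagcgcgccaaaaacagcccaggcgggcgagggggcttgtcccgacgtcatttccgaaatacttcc
Ndufa5, chr6:24527691-24527840, minus strand: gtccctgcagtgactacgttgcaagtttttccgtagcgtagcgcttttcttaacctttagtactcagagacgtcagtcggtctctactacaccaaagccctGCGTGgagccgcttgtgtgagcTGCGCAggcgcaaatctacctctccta
Ndufa10, chr1:92473759-92473908, minus strand: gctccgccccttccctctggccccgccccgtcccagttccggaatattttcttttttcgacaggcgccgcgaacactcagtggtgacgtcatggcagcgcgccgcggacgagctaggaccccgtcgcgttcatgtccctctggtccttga

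Of the 4, Ndufa5 held both motifs in these 150 bases and the other three held neither, and in the window of 300 bases used next Cox8a held GCGTG as well. Over a window of 300 bases around the start (250 before and 50 after, both strands), GCGTG was found in 54.1% of 74 nuclear members with a promoter, 53.3% of 9344 tested genes and 32.4% of all 32851 promoters. Of the 20 members that rose in both genotypes, 17 had a promoter entry, and GCGTG stood in 7 of these (41.2%). Of the 9 that fell in both, 7 had an entry, and it stood in 5 of these (71.4%). TGCGCA was found in 24.3% of nuclear members, 15.1% of tested genes and 7.76% of all promoters, AAGATGGC (the motif of YY1) in 12.2%, 4.97% and 2.75%, CCGGAAG (ETS factors) in 23%, 19.5% and 8.86%, and AAGGTCA (estrogen-related receptors) in 10.8%, 2.94% and 4.72%. For 66 of the 74, bases 21 to 50 after the start used lay in a GENCODE transcript of the gene. A match is a description of letters and does not show that a factor binds.

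The change with FICZ was related to base composition. Across the 87 nuclear members, Pearson's r between the log2 difference and the GC content of the transcript was 0.46 in WT and 0.43 in AHR KO, close to the values over 12704 genes (0.37 and 0.41). Genes are not independent replicates and the points share their libraries. The members that rose in WT had a median GC content of 52.8%, those that fell 46.8%. With the trend on GC content and length removed from each library, 25 nuclear members rose and 3 fell in WT (against 9.16 and 9.21% of all genes in that fit), and 17 rose and 3 fell in AHR KO (against 2.35 and 2.89%), among which were 20 of the 37 called before in WT and 17 of the 33 in AHR KO, and r became -0.08 and -0.14. Atp5d, Ndufa11 (0.38 and 0.41), Cox8a (0.40 and 0.30) and Atp5g1 (0.64 and 0.55) stayed higher and Ndufa5 (-0.27 and -0.47) and Ndufa10 (-0.41 and -0.46) lower, all called. Whether the relation to GC content arose in the cells or in the libraries was not tested. In WT, called under each of 15 alternatives that used a gene's own values (left-out libraries included) were Atp5d, Uqcrq, Ndufa11, Atp5g1, Cox8a, Uqcr11, Cox7b, Ndufa7, Atp5g3, Cox5a and Uqcrc1, all higher, and Ndufaf2, Ndufa10 and Ndufa5, all lower. In AHR KO these were Atp5d, Ndufa11, Ndufa7, Cox8a and Atp5g1, higher, and Ndufa5, lower.

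**Figure D3:**
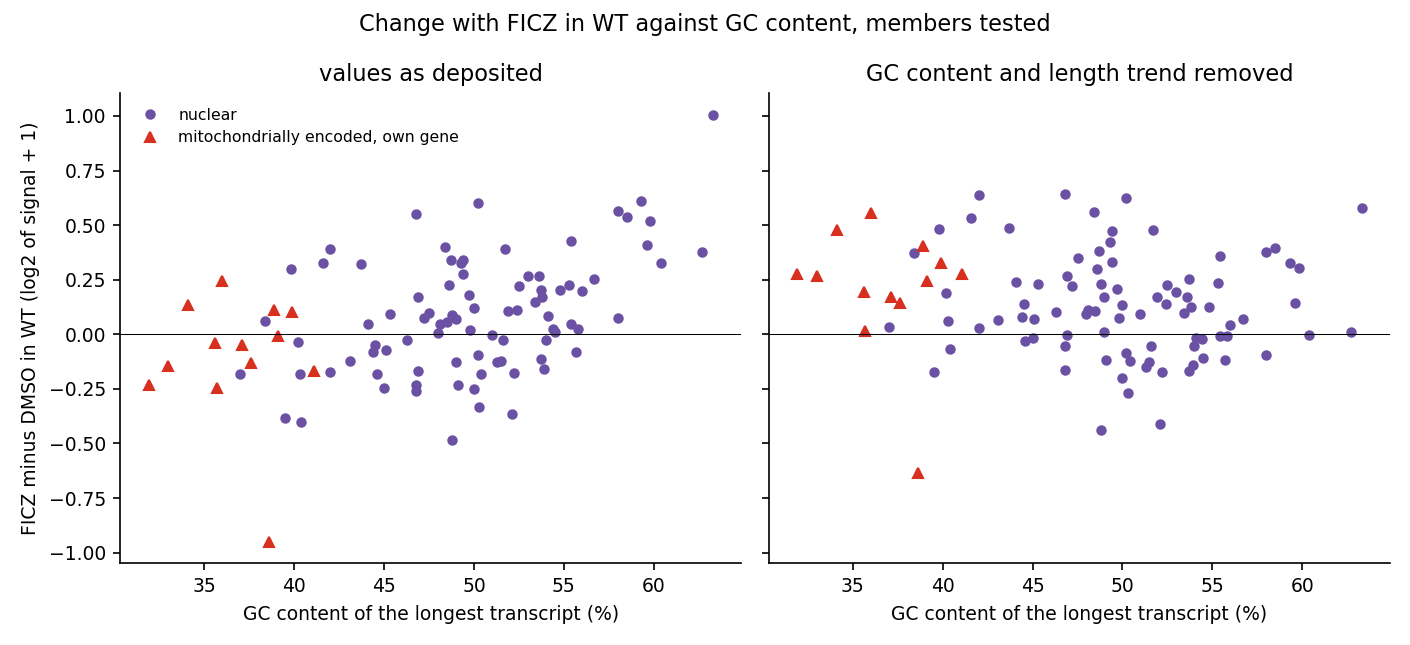
Log2 difference between FICZ and DMSO in WT (y axis) against the GC content of the longest transcript in percent (x axis), for the 87 nuclear and 13 mitochondrially encoded members tested, before (left) and after (right) the trend on GC content and length was removed. The upward slope of the nuclear members on the left (r = 0.46) is absent on the right (r = -0.08), and the mitochondrially encoded members move up as a group.

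Several members share nearly all their sequence with pseudogene copies, among which the counting of short reads can split a signal. Of the members tested, 9 had 5% or more of the summed signal of gene and copies in the copies, and 6 of these were mitochondrially encoded. The copies of the mitochondrial genes that held nearly all of this signal are annotated as unprocessed pseudogenes in 1 stretch of the nuclear genome, chr1:24611535-24616197 on GRCm38. The first 60 coding bases of 3 members and of 1 copy each are shown because the values of these genes turn on the reads shared. Capitals mark the mismatch.
mt-Nd3: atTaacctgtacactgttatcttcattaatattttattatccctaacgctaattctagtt
Gm28438: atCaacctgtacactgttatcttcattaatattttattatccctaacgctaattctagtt
mt-Co2: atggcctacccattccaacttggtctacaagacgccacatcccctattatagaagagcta
Gm28661: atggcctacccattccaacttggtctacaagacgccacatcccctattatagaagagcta
Atp5g2: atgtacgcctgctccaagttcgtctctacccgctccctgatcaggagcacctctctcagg
Gm10175: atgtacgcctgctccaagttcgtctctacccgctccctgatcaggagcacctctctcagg

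mt-Nd3 and Gm28438 differed at 1 of 345 bases, mt-Co2 and Gm28661 at 0 of 681, and Atp5g2 and Gm10175 at 0 of 438. Read by gene alone, Atp5g2, the remaining gene for the c subunit, had signals of 142 and 79.8 in WT DMSO, 221, 217 and 206 in WT FICZ, 139 and 183 in AHR KO DMSO, and 157 and 174 in AHR KO FICZ, 2.01-fold higher with FICZ in WT (SE 0.22 on the log2 scale, adjusted p = 0.00702), with a log2 difference of 0.05 ± 0.24 in AHR KO, not called. Without WT DMSO replicate 3 the WT difference was 0.59 and not called. Its copies held 93.3 to 97.2% of the summed signal. Summed with them, Atp5g2 was at 2611 and 2806 in WT DMSO, 3949.9, 3856 and 4015 in WT FICZ, 2616 and 2751 in AHR KO DMSO, and 3696 and 3744 in AHR KO FICZ. On that scale the WT and AHR KO changes were alike in size (0.54 ± 0.05 and 0.47 ± 0.06, each called, interaction 0.07 ± 0.08). With the GC content trend also removed they were 0.12 and 0.05, neither called. Ndufb4, an accessory subunit of complex I, was called lower in AHR KO on its own values (-0.51) but not when summed with its copies (-0.13, adjusted p = 0.299).

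The 13 mitochondrially encoded members were measured in every library. Per kilobase of transcript, with copies summed, the order ran from mt-Co1 (253321), mt-Atp6, mt-Co2, mt-Co3 and mt-Atp8 through mt-Nd1, mt-Cytb, mt-Nd4, mt-Nd2 and mt-Nd5 to mt-Nd3, mt-Nd4l and mt-Nd6 (5882). Of the neighbours in this order, mt-Nd3 (26117) and mt-Nd4l (25970) stood in it in 5 of 9 libraries, and mt-Atp6 and mt-Co2, mt-Co2 and mt-Co3, and mt-Atp8 and mt-Nd1 in 8 of 9 each. The ranges over libraries overlapped for all neighbours other than mt-Co1 with mt-Atp6 and mt-Nd4l with mt-Nd6. mt-Atp8 overlaps mt-Atp6, and mt-Nd4l overlaps mt-Nd4, so that reads of the overlaps can count for either. This order is of means over all libraries. mt-Nd6, the sole member read from the light strand, was the lowest. mt-Co1, the catalytic subunit of complex IV, had summed signals of 390479.9 and 335333 in WT DMSO, 452140.2, 333136 and 401171 in WT FICZ, 376427 and 423650.5 in AHR KO DMSO, and 443343 and 366743 in AHR KO FICZ. mt-Nd6 had 3009 and 2377 in WT DMSO, 3541, 2535 and 2807 in WT FICZ, 3133 and 3746 in AHR KO DMSO, and 3695 and 2631 in AHR KO FICZ. The copies held 96.9% of the summed signal of mt-Co2, 96.1% of mt-Co3, 94.0% of mt-Atp6, 71.7% of mt-Nd3, 70.7% of mt-Nd4l and 8.0% of mt-Co1. In mt-Co3, a core subunit of complex IV, the signal of the gene alone was 4811 and 1333 in WT DMSO, 3521, 1520.3 and 3810.0 in WT FICZ, 3496 and 3606 in AHR KO DMSO, and 5535 and 9225 in AHR KO FICZ, a range of 6.92-fold between libraries, and with copies 108151 and 96191 in WT DMSO, 102744, 96986 and 101359 in WT FICZ, 111892 and 114104 in AHR KO DMSO, and 109559 and 97801 in AHR KO FICZ, a range of 1.19-fold. For mt-Co2, which receives electrons from cytochrome c, the range narrowed from 3.21-fold to 1.44-fold.

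**Figure D4:**
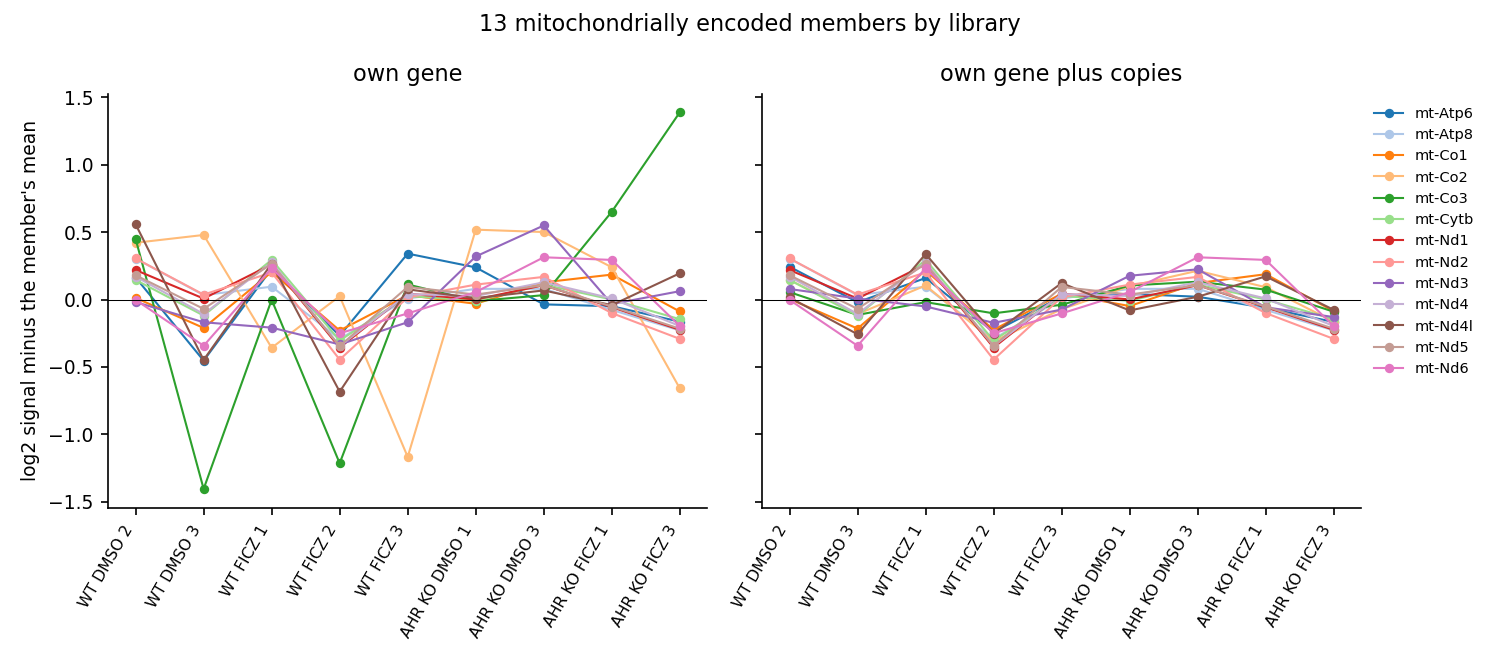
Each library's log2 of signal (nothing added) minus the mean of that member over all 9 libraries (y axis), for the 13 mitochondrially encoded members, from the gene alone (left) and from the gene with its copies (right), with lines that only join the points of a member. With copies summed, the excursions of mt-Co3 and mt-Co2 are small and WT FICZ replicate 2 is below 0 for all 13 members.

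With FICZ, 1 of the 13 mitochondrially encoded members was called in WT on its own values, mt-Co2, which fell (7.69%, against 15.7% of all genes), and 1 in AHR KO, mt-Nd3, which fell (7.69%, against 9.48% of all genes). The call of mt-Co2 (-0.95 ± 0.31, adjusted p = 0.0416) was lost in 6 of 9 fits with 1 library left out (-1.02 to -0.62, the smallest without WT FICZ replicate 3) and when copies were summed (-0.11 ± 0.13, adjusted p = 0.545). mt-Nd3, a core subunit of the membrane arm of complex I, had summed signals of 9555 and 9101 in WT DMSO, 8737, 8031 and 8597 in WT FICZ, 10229 and 10574 in AHR KO DMSO, and 8699 and 8273 in AHR KO FICZ. Both AHR KO FICZ libraries were below both AHR KO DMSO libraries, and the fall was called on either scale (-0.42 ± 0.09, adjusted p = 0.0114, and with copies -0.29 ± 0.06, adjusted p = 0.00871). On its own values the call was lost without AHR KO DMSO replicate 3 or AHR KO FICZ replicate 1 (-0.37 to -0.30). It was also lost with copies summed and any 1 of AHR KO DMSO replicate 1 (-0.32), AHR KO DMSO replicate 3 (-0.27) or AHR KO FICZ replicate 3 (-0.26) left out, and with copies summed and the GC content trend removed the difference was 0.09. In WT the summed difference of mt-Nd3 was -0.14 ± 0.05, not called, and the interaction on its own values was 0.28 ± 0.12 (adjusted p = 0.65). The medians over the 13 members were -0.05 in WT and -0.19 in AHR KO, which set against the medians of the nuclear members gives -0.12 and -0.23. A related quantity is each library's median log2 signal of the mitochondrially encoded members minus that of the nuclear members. Its pooled SD between libraries of a group was 0.19, which is not the spread of the differences between groups. The medians over the 13 members turned to 0.27 and 0.11 with the GC content trend removed, so that no direction can be given for the mitochondrially encoded members as a group.

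The mitochondrially encoded members varied together from library to library, more than the nuclear members did. With copies summed, the deviations of the 12 heavy-strand members from their group means had a median pairwise Pearson's r of 0.96 (66 pairs), against 0.22 over 3741 pairs of nuclear members, and their median SD within groups was 0.20 against 0.07 on the log2 scale. These correlations describe 9 libraries that the genes share, and in the groups of 2 libraries the deviations mirror each other. WT FICZ replicate 2 was below the mean of all libraries for all 13 members (median -0.29), and so was AHR KO FICZ replicate 3 (median -0.17), whereas WT FICZ replicate 1 had a median of 0.22. In WT FICZ, mt-Nd1, a core subunit of complex I, had signals of 112533, 73364 and 96768, and mt-Cytb, the cytochrome b of complex III, 106528, 70361 and 88493. The nuclear members of WT FICZ replicate 2 had a median deviation of 0.11, so that the nuclear and the mitochondrially encoded members stood apart in that library. Malat1 also differed between these libraries, as given above.

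As a share of all signal, the mitochondrially encoded members and their copies took 4.80 and 4.16% in WT DMSO, 5.19, 3.83 and 4.58% in WT FICZ, 4.65 and 5.01% in AHR KO DMSO, and 4.87 and 4.33% in AHR KO FICZ. All groups overlapped. The nuclear members took 1.02 and 1.04% in WT DMSO, 1.06, 1.13 and 1.08% in WT FICZ, 0.99 and 1.01% in AHR KO DMSO, and 1.06 and 1.04% in AHR KO FICZ. In each genotype the FICZ libraries lay above the DMSO libraries for the nuclear share. No test was run on the shares. The ratio of the mitochondrial to the nuclear share ran from 3.40 in WT FICZ replicate 2 to 4.94 in AHR KO DMSO replicate 3.

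**Figure D5:**
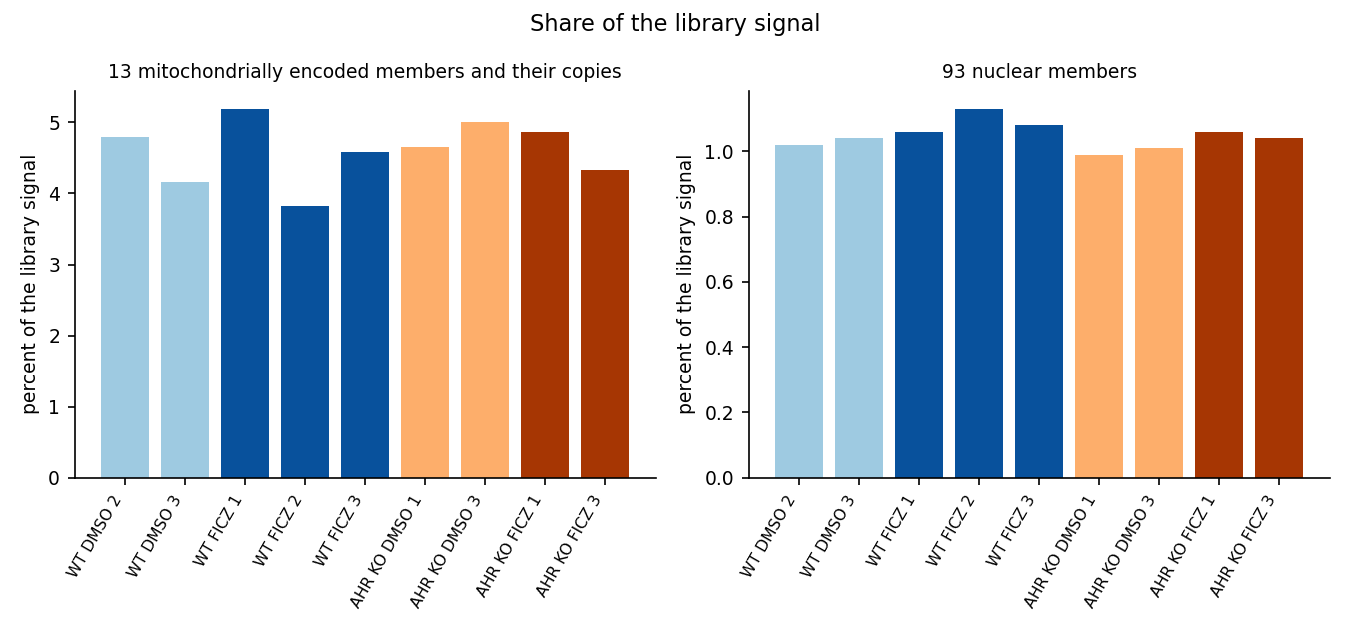
Share of a library's signal, in percent from 0, taken by the 13 mitochondrially encoded members with their copies (left) and by the 93 nuclear members (right), 1 bar per library and no error bars. The mitochondrial share runs from 3.83 to 5.19% with all groups overlapping, and the nuclear share from 0.99 to 1.13%, higher with FICZ in each genotype.

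Where a complex IV subunit has forms of its own in certain tissues, the common form had the higher signal. Cox4i1, the common isoform of a complex IV subunit, had signals of 5381 and 5269.8 in WT DMSO, 5294, 6015 and 5534 in WT FICZ, 4995 and 5240.1 in AHR KO DMSO, and 5637 and 5427 in AHR KO FICZ, while Cox4i2, known from lung and low oxygen, had a mean of 0.177 and did not reach the filter. The muscle isoforms Cox6a2 and Cox8b and the testis isoforms Cox7b2 and Cox8c were listed at 0 in all libraries. Cox7a1, a muscle isoform, passed the filter at low signals (34.2 and 30.5 in WT DMSO, 37.6, 43.1 and 33.5 in WT FICZ, 18.6 and 20.6 in AHR KO DMSO, and 32.3 and 16.8 in AHR KO FICZ) beside Cox7a2 (mean 2101), and so did Cox6b2, a testis isoform (mean 71.5), beside Cox6b1 (mean 5076). Ndufa4, now counted with complex IV, had a mean of 1719, and Ndufa4l2, its relative induced by low oxygen, a mean of 1.85. These are signals per gene and not per length, so that they show which isoforms were detected and not a ratio of molecules.

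Between genotypes under DMSO, which asks how the genotypes differed without added ligand, 0 nuclear members were higher in AHR KO (against 4.21% of all genes) and 5 were lower (5.75%, against 4.83% of all genes). The 5 were Uqcrb (-0.28), Atp5d (-0.26), Ndufs6 (-0.25), Ndufb10 (-0.23) and Uqcrh (-0.21). Ndufs6 is an accessory subunit of the matrix arm of complex I and Ndufb10 of its membrane arm. With the GC content and length trend removed, 1 of these 5 kept its call, and Cox6b1 was called as well. With 1 library left out at a time, the differences ran from -0.34 to -0.21 for Uqcrb and -0.32 to -0.20 for Atp5d. They ran from -0.28 to -0.22 for Ndufs6, -0.27 to -0.18 for Ndufb10 and -0.24 to -0.18 for Uqcrh. The limma count was 0 when libraries were scaled to the nuclear protein-coding total, with no filter on low values, or without any 1 of WT DMSO replicate 3 or AHR KO DMSO replicate 1 or 3. Without WT DMSO replicate 2, 0 of the 5 kept their call, and Atp5g2, which shares reads with copies, was called higher. At an unadjusted p under 0.05 the same test held 18 of 87 nuclear members (against 23.8% of all genes). Of the mitochondrially encoded members mt-Nd3 alone was called, higher in AHR KO on its own values (7.69% of 13, against 4.21% of all genes, 0.53 ± 0.09) but not with copies summed (0.16 ± 0.06, adjusted p = 0.134).

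Under FICZ, 1 nuclear member was higher in AHR KO than in WT (1.15%, against 9.48% of all genes) and 13 were lower (14.9%, against 10.5% of all genes). This comparison shares its libraries with the FICZ comparisons above. The gene that was higher was Cox6b2, a complex IV isoform known from testis, with signals of 57.7 and 57.2 in WT DMSO, 49.5, 61.5 and 52.7 in WT FICZ, 83.4 and 79.8 in AHR KO DMSO, and 106 and 95.3 in AHR KO FICZ. Both AHR KO FICZ libraries were above all 3 WT FICZ libraries (0.88 ± 0.17, adjusted p = 0.00551), and the AHR KO DMSO libraries were also above the WT DMSO libraries (0.50 ± 0.19, adjusted p = 0.141, not called). The call of Cox6b2 held under each of 15 alternatives. Its ubiquitous counterpart Cox6b1 had means of 4931 in WT FICZ and 5076 in AHR KO FICZ (0.04, not called). The lower genes were led by Atp5s (-0.48) and, in complex I, Ndufa12 (-0.34), Ndufa3 (-0.32), Ndufa5 (-0.28) and Ndufb5 (-0.27), with Uqcrb (-0.26) in complex III. Ndufa12, an accessory subunit, had signals of 3999 and 4107 in WT DMSO, 4028, 3301 and 3894 in WT FICZ, 3657 and 3518 in AHR KO DMSO, and 2844 and 3049 in AHR KO FICZ. With the GC content and length trend removed, 10 of the 14 calls were kept, and Atp5f1, Ndufs1 and Uqcrc2 were called as well. Of the 14 calls, 2 were kept without AHR KO FICZ replicate 3 (Cox6b2 and Ndufa12), 6 without WT FICZ replicate 3, 7 without WT FICZ replicate 1, 8 without AHR KO FICZ replicate 1, and 9 when scaled to the nuclear protein-coding total. Calls were lost for Ndufa12 without AHR KO FICZ replicate 1 (-0.29), Ndufa3 without AHR KO FICZ replicate 3 or WT FICZ replicate 3 (-0.26 to -0.24), Ndufa5 without AHR KO FICZ replicate 1 or AHR KO FICZ replicate 3 (-0.29 to -0.28) and Uqcrb without AHR KO FICZ replicate 3 or WT FICZ replicate 3 (-0.22 to -0.18). Ndufb5 lost its call in 3 of the 9 fits with 1 library left out (-0.28 to -0.16, the smallest without AHR KO FICZ replicate 3) and Atp5s its call in 3 (-0.49 to -0.42). Of the 13 mitochondrially encoded members 0 were called by limma (2 at an unadjusted p under 0.05, against 33.6% of all genes), and 1 with that scaling.

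Genes around the pathway were taken from lists of their own. In these lists, a call in 1 genotype only does not by itself show a difference between genotypes. The calls are those from the values as deposited. For these lists, no results with the GC content trend removed or with a library left out are given. The relation of the FICZ change to GC content was also seen over all genes. Of all genes, 15.1% rose and 15.7% fell in WT, and 10.2% rose and 9.48% fell in AHR KO. Of 40 assembly factors outside the symbol rule, 3 rose and 1 fell with FICZ in WT, and 4 rose and 2 fell in AHR KO. Cox14, which acts in the assembly of complex IV, rose by 0.74 and 0.60, Cox10, an enzyme of heme A synthesis, by 0.28 in WT, and Sco2, a copper chaperone, by 0.54 in AHR KO. Cox20, a chaperone of the mt-Co2 protein, fell by 0.46 and 0.45. Pet117, also of complex IV assembly, was called lower in AHR KO at low and scattered signals (15.6 and 39.2 in WT DMSO, 51.6, 3.05 and 6.87 in WT FICZ, 61.7 and 42.2 in AHR KO DMSO, and 9.92 and 0 in AHR KO FICZ). Of 25 tested genes for transcription, replication and stability of mitochondrial RNA and DNA, 1 rose and 10 fell in WT, with a median of -0.22, and 2 rose and 3 fell in AHR KO, with a median of -0.13. Among them were Tfam, which packages and transcribes mitochondrial DNA (-0.41 in WT and -0.22 in AHR KO, the latter not called), the helicase Twnk (-0.43 in WT), the single-strand binding protein Ssbp1 (-0.38 and -0.37) and, in the other direction, Fastk (0.46 and 0.43) and the mitochondrial RNA polymerase Polrmt (0.43, not called, and 0.60).

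Of 8 tested regulators of mitochondrial biogenesis, 2 rose and 4 fell in WT, and 1 rose and 1 fell in AHR KO. Esrra, a nuclear receptor that acts on genes of oxidative phosphorylation, rose in both (0.74 and 0.63). Its coactivators moved apart in WT, where Ppargc1b rose by 0.53 and Ppargc1a fell by 0.79, with 0.24 and -0.37 in AHR KO, neither called. Gabpa, an ETS factor, fell in both (-0.45 and -0.30). Cycs, which encodes the cytochrome c that carries electrons from complex III to IV, fell in both (-0.38 and -0.33), 1 of 2 that fell in WT among 11 mobile carriers and transporters, beside the channel Vdac2 (-0.28), while Dhodh, which feeds electrons to ubiquinone, rose (0.49). Of 18 genes of the citric acid cycle and of the pyruvate dehydrogenase step that feeds it, 3 rose and 5 fell in WT, with Pdk1 (-0.49), a kinase that inhibits pyruvate dehydrogenase, and the enzymes Fh1 (-0.45) and Dld (-0.34) the lowest, and 1 rose and 3 fell in AHR KO, with Suclg2 (-0.44) the lowest. Of the uncoupling proteins and alternative pathways only Ucp2 was tested, and it rose in WT (0.26). Mitochondrial ribosomal proteins moved both ways, 11 of 78 up and 13 down in WT, and 7 up and 7 down in AHR KO, from Mrps5 (-0.43) and Mrpl19 (-0.43) to Mrpl4 (0.59) in WT and from Mrpl32 (-0.47) to Mrpl28 (0.48) in AHR KO. The mitochondrial ribosomal RNAs mt-Rnr1 and mt-Rnr2 were not called. Because the libraries were depleted of ribosomal RNA, their signal need not follow their level in the cells. As among the subunits, the lists held genes of each direction, and these shares stand beside 15.1% higher and 15.7% lower of all genes in WT and 10.2% and 9.48% in AHR KO.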

How the data were processed

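The authors deposited 1 table of normalised read counts per gene, used here as a signal with a floor of 0, many of its values fractional. The submitters' processing notes name STAR 2.5.2a, RSEM 1.2.31, DESeq2 1.16.1 and the build GRCm38, and the methods of the study name summarizeOverlaps with mm10 gene models and DESeq2. The deposited table bears the name of RSEM, which divides reads shared by similar genes by estimation, but its annotation and scaling are not stated. Libraries were stranded and depleted of ribosomal RNA, so that mitochondrial transcripts were not selected by their poly(A) tail, and the handling of reads that match several genes bears on members with copies. Whole reads could not be recovered, and no count model was applied.

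From the deposited signal onward, values were transformed as log2(value + 1), genes with a mean of 10 or more were kept, and limma 3.58.1 (R 4.3.3; lmFit, eBayes with trend) was fitted to all 9 libraries with 4 group coefficients and no covariate. P-values are two-sided and Benjamini-Hochberg adjusted over 12741 genes, with a threshold of 0.05, and the scale understates changes of low genes. They measure the spread between these libraries, which the methods call biological replicates, and 2 or 3 libraries a group limit their precision. The model was tested on simulated data, and no outcome of that test is given here. Symbols, types, GC content and length came from GENCODE M21 (48349 identifiers matched). Copies were genes matching a member's coding sequence at 95% identity or more over at least 100 bases (blastn 2.17.0), and promoters came from RefSeq on GRCm38.p6.

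The members and lists were chosen with earlier results of these data known. Named were all mitochondrially encoded members, the isoforms, members under the filter, up to 6 called nuclear members with the highest and 6 with the lowest difference in each contrast (mean 50 or more), and up to 3 called genes of each other list. Other members were named after their values were seen. Alternatives were a pseudocount of 10, no filter, TMM scaling, scaling to the nuclear protein-coding total, removal of the GC content and length trend, summing of copies, a replicate block and leaving out each library.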

Additional observations from a re-analysis of the deposited data

How the results depend on the processing

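The nuclear count of 37 called with FICZ in WT ranged from 20 to 36 when libraries were left out in turn, that of 33 in AHR KO from 10 to 37, that of 0 in the interaction from 0 to 0, that of 5 between genotypes under DMSO from 0 to 6 and that of 14 under FICZ from 3 to 16. The mitochondrially encoded counts ranged from 0 to 1, 0 to 2, 0 to 0, 0 to 1 and 0 to 1 in the same order, and the median difference of mitochondrially encoded minus nuclear members from -0.28 to 0.092, -0.32 to -0.16, -0.06 to 0.27, -0.06 to 0.24 and -0.13 to 0.15. With the GC content and length trend removed, the nuclear count was 20 with FICZ in AHR KO and 2 between genotypes under DMSO, alone or with copies summed. The mitochondrially encoded count was then 0 with FICZ in WT and 3 with copies summed too, and 0 in AHR KO on either scale, and the median difference turned to 0.16 in WT and 0.03 in AHR KO (0.15 and 0.066 with copies summed). Summing of copies alone left 0 mitochondrially encoded members called with FICZ in WT and 0 between genotypes under DMSO, the latter also 0 with the trend removed. With no filter, 0 mitochondrially encoded members were called with FICZ in WT and 0 nuclear members between genotypes under DMSO. Scaling to the nuclear protein-coding total gave 0 nuclear members between genotypes under DMSO, and 9 nuclear and 1 mitochondrially encoded under FICZ. With copies summed and the trend removed, mt-Co2 with FICZ in WT turned to 0.21, mt-Nd3 to 0.28 in WT and 0.092 in AHR KO, and mt-Nd4l to 0.65 (0.35 with copies summed and without WT FICZ replicate 2), and mt-Co2 with copies summed and without WT DMSO replicate 2 to 0.016. The combinations of summed copies with another choice were chosen after seeing the data. Replicate numbers are shared between the DMSO and FICZ libraries of a genotype, but same-numbered libraries hardly deviated together (r 0.042 and 0.050 in WT and 0.035 in AHR KO). In AHR KO both groups hold 2 libraries, whose deviations mirror each other, so that its pairs give 1 value. With the number as a block, 33 nuclear members were called in WT and 27 in AHR KO. Among these were 31 of the 37 called without the block in WT and 26 of the 33 in AHR KO. Scaling moved the median of all genes by at most 0.05. The cause of these shifts was not tested. Depth per gene was not known, which limits statements on low members such as Cox7a1.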
